A study of Arabidopsis thaliana with 2 samples.

Results

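Transcripts of TIR-type immune receptors, the plant receptors that open with a Toll/interleukin-1 receptor domain, were measured by RNA sequencing in cold-treated Arabidopsis thaliana leaves. The genes were taken from a list of 60 gene IDs, among them the chilling-sensitive loci CHS1 (AT1G17610), RPP4 (AT4G16860, the locus also known as CHS2) and CHS3 (AT5G17890). The rule behind the list names gene IDs and no measured value, but the list was drawn up with earlier results of these data known. The deposited tables held 53 of the 60 among 18345 genes. The other 7, AT5G38340, AT5G38350, AT5G41540, AT5G41550, AT5G17680, AT2G16870 and RLM1 (AT1G64070), were dropped and are not analysed here. The RefSeq product names fitted the description for most genes, but 5 of the 60 carry no mention of TIR, and 2 of these, AT5G40060 and AT5G38350, are annotated as NBS-LRR only.

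There were 2 libraries, 1 for each genotype. One came from the accession Col-0, the wild type. The other was from npr1-1, a line with a point mutation in NPR1, a receptor for salicylic acid and co-activator of defence genes. Both came from leaves of 2-week-old plants held at 4 °C for 24 h in long days, under a photon flux lowered from 90 to 40 µmol per square metre per second. Both libraries were therefore cold-treated, and the values describe the genotypes in the cold, not the response to cold. Whether plants were pooled is not given in the sources used here. With 1 library per genotype no difference has a replicate check, and no p-value is given.

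Levels are given in CPM, in which each library sums to 1000000, and rest on 50864103 reads in the wild type and 50976521 in the mutant. NPR1 itself stood at 22.02 CPM in the wild type and 18.7 CPM in the mutant, and a transcript level does not check for a point mutation. The 6 leaf marker genes stood between 2309 and 13067 CPM in Col-0, and the mutant was higher for 5 of them, the median log2 difference being 0.13. The 7 markers of root, flower and seed had no listed value and were not analysed here. In whole leaves, fewer cells of a type and less RNA per cell cannot be told apart.

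TIR-type receptors usually join the TIR domain to a nucleotide-binding domain and leucine-rich repeats. They detect pathogen effectors, and once active their TIR domains make nucleotide signals that are read by EDS1 with PAD4 or SAG101 and passed on by helper receptors of the ADR1 and NRG1 families. Their abundance is held down in healthy leaves, and mutants in which a receptor is active without a pathogen are dwarfed and often more strongly affected at low temperature. The chs mutants belong to this class and were found through their damage on chilling. SNC1 is named for a mutation that suppressed npr1-1, the allele used here.

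The nucleotide-binding domain can be followed in the coding sequence by its Walker A motif, or P-loop, which holds the phosphates of ATP. A match to this motif was found in the coding sequence of all 53 genes with values. In AT5G40060 it lay at codon 19, and in the other genes between codons 172 and 391. The TIR domain itself was not checked. The windows below show how closely RPP4, SNC1 and RPP5, neighbours on chromosome 4, resemble each other, and how far the other chilling-sensitive genes stand from them, which bears on how reads can be told apart. Each window is 60 bases of the RefSeq coding sequence (assembly TAIR10.1), 5′ to 3′ on the coding strand, with the 24 bases of the P-loop codons in capitals.
RPP4: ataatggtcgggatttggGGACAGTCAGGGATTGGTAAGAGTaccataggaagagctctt
SNC1: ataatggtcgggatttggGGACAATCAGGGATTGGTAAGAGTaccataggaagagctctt
RPP5: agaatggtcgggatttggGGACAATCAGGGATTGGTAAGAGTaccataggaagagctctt
CHS1: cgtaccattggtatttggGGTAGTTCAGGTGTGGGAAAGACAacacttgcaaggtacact
CHS3: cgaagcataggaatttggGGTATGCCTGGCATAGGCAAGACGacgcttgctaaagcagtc
CSA1: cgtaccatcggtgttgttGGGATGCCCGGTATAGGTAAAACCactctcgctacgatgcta
The windows lie at chr4:9491862-9491921 (RPP4, minus strand), chr4:9504704-9504763 (SNC1, minus), chr4:9543528-9543587 (RPP5, minus), chr1:6057495-6057554 (CHS1, plus), chr5:5917928-5917987 (CHS3, plus) and chr5:5912283-5912342 (CSA1, minus). Counting from 1 at the 5′ end of the window and writing the base of RPP4 first, SNC1 differed by G24A alone, and RPP5 by T2G and G24A. CHS1 differed from RPP4 at 28 of the 60 positions, CHS3 at 26 and CSA1 at 32. Over longer stretches the neighbours are less alike. The transcripts of RPP4 and SNC1 aligned at 85.4% identity over 1669 bases, and those of RPP4 and RPP5 at 89.7% over 1835 bases.

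The receptor transcripts were close in both libraries, and most were slightly lower in npr1-1. Of the 53 genes 45 were lower in npr1-1 and 8 were higher, against 57.3% lower among all listed genes. Their median difference of log2(CPM + 1), npr1-1 minus Col-0, was -0.20, against -0.04 for all listed genes. A counting interval for the ratio of npr1-1 to Col-0 lay wholly below 1 for 29 genes, wholly above 1 for 3 and held 1 for 21. Among all listed genes 31.8% had an interval below 1 and 20.9% one above 1. Such an interval covers the error of counting reads and nothing of the variation between plants. The reads of the 53 genes summed to 1229.7 CPM in the wild type and to 1096.2 CPM in the mutant, a ratio of 0.891 with a 95% counting interval from 0.881 to 0.902.

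**Figure D1:**
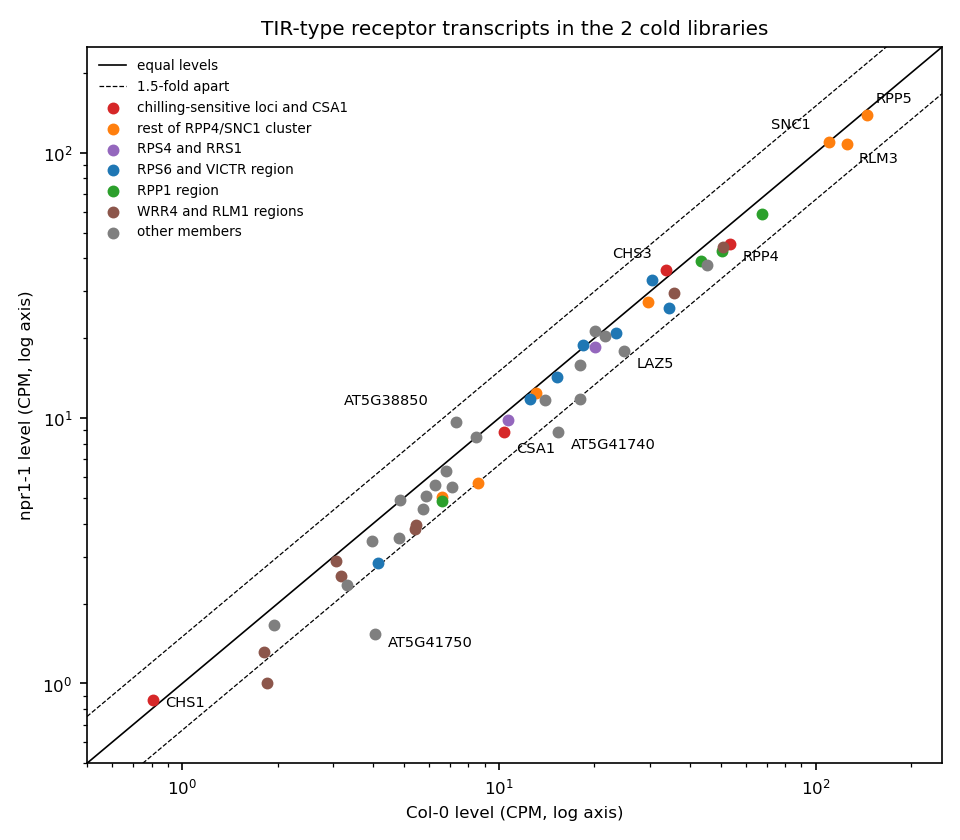
Levels of the 53 receptor genes in CPM, Col-0 on the x axis and npr1-1 on the y axis, both log axes, 1 point per gene coloured by group. Most points lie just under the line of equal levels, and AT5G41750, AT1G56540 and AT5G41740 lie farthest under it.

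A minimum of 5 CPM in at least 1 library, about 254 reads in the wild type and 255 in the mutant, was reached by 41 of the 53 genes. Of the 41 there were 4 that reached it in Col-0 alone and 0 in npr1-1 alone. The 4 were AT3G44400, AT5G51630, AT1G63860 and AT1G56520, which count among the 41 only through the library in which they were higher. Of all 13976 genes past the minimum, 360 reached it in Col-0 alone and 242 in npr1-1 alone. Among the 41 genes 35 were lower, where 59% of all genes past the minimum were. The median was -0.17 for the receptors and -0.05 for all genes. On the log2(CPM + 1) scale AT5G41740 alone was at least 1.5-fold lower, 1 of 41, where the share among all genes was 2.06%. As plain ratios of CPM, AT1G31540 and AT4G16960 were also past that fold, at 1.53-fold and 1.51-fold lower. On the log2(CPM + 1) scale the number at least 1.5-fold higher was 0 of 41, with 0.909% among all genes, and the number at least 2-fold apart was 0 of 41, with 0.73% among all genes. On that scale the share of receptor genes past these folds was thus near that of the whole table. For plain ratios the share among all genes was not taken. The interval lay below 1 for 24 of the 41 and above 1 for 3, CHS3, VICTL and AT5G38850, where 36.8% and 23.5% of all genes had such intervals.

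The receptor genes are long, with a median deposited model length of 3654 bases against 1506 for all genes, and long genes in general were lower in npr1-1. Of all genes past the minimum with models of at least 3000 bases 69.9% were lower, 48.8% had an interval below 1, and the median was -0.09. Subtracting the median of 1 of 20 bins of model length from each gene moved the receptors' median to -0.08 and left 28 of the 41 below 0. After that step 6981 of all 13976 genes past the minimum were below 0, and 716 of the 1446 long ones. Before that step other long genes had a shift in the same direction, and the receptors' median lay below it.

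The direction was seen at each level of expression. Of the 12 genes that stayed under 5 CPM in both libraries 10 were lower, with a median of -0.26, where 52.1% of all such genes were lower. Of the 12 genes whose higher level was between 5 and 10 CPM 10 were lower, and of 10 genes between 10 and 20 CPM 9 were lower, where 57.4% and 59.1% of all genes at those levels were. Of 12 genes between 20 and 50 CPM 9 were lower, and of 7 genes at 50 CPM or over 7 were lower, beside 62.7% and 56.0% of all genes. The medians of these 4 classes were -0.30, -0.14, -0.13 and -0.20. The 7 genes with the most reads were RPP5, RLM3, SNC1, RPP1, RPP4, AT1G63880 and AT3G44630.

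Per kilobase of the longest RefSeq transcript, the scale on which levels of different genes can be compared, RLM3 was the highest, at 34.9 CPM per kb in Col-0 and 30.0 in npr1-1. RPP5 followed with 27.7 and 26.3, and SNC1 with 22.5 in both libraries. AT1G63880 had 14.5 and 12.6, RPP4 14.5 and 12.3, and RPP1 12.4 and 10.7 CPM per kb. The first 3 are neighbours in the chromosome 4 cluster and stood well above the median of the 53 genes, 2.84 CPM per kb in Col-0. CHS1 was the lowest in Col-0, at 0.330 CPM per kb in Col-0 and 0.353 in npr1-1. AT1G63880 and RPP4 did not differ in Col-0 beyond their counting error. The order depends in part on the length used. With the deposited model length RLM3, RPP5 and SNC1 stayed the highest in Col-0. RPP1, at 16.8 CPM per kb, then passed AT1G63880, at 15.1, and RPP4, at 14.6. CHS1, at 0.551, was then above AT1G63750, at 0.515.

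The chilling-sensitive loci did not share a direction. CHS1 encodes a short receptor of a TIR and a nucleotide-binding domain, on chromosome 1 from 6056895 to 6058357 in the deposited models (build TAIR10). It stood at 0.806 CPM in the wild type and 0.863 CPM in the mutant, 41 and 44 reads, and the ratio of 1.07 had an interval from 0.684 to 1.68. A difference of less than about that width could not be seen at this depth. The RefSeq model of CHS1 overlaps AT1G17600, another TIR gene on the opposite strand, which stood at 1.87 and 2.02 CPM. Strand use in the counting is not given in the sources used here, so the few reads of CHS1 cannot be placed with certainty.

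RPP4, a receptor for downy mildew in which a gain-of-function allele causes chilling sensitivity, lies on chromosome 4 from 9488466 to 9495816. It stood at 53.6 CPM in the wild type and 45.3 CPM in the mutant, 2724 and 2310 reads, a log2 difference of -0.24 and a ratio of 0.846 from 0.800 to 0.895. It was thus lower in npr1-1 by more than counting error, and by less than 1.5-fold.

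CHS3 and CSA1 encode a pair of receptors that work together, and CHS3, annotated as DA1-related protein 4, carries an added LIM domain. CHS3 lies on chromosome 5 from 5916970 to 5923355 and CSA1 from 5908874 to 5913099. The genes point away from each other, with 3870 bases between the deposited models. CHS3 stood at 33.7 CPM in the wild type and 36.1 CPM in the mutant, a log2 difference of 0.10 and a ratio of 1.07 from 1.004 to 1.15. CSA1 stood at 10.3 and 8.83 CPM, a log2 difference of -0.21 and a ratio of 0.854 from 0.751 to 0.970. The 2 partners thus lay on opposite sides of equality, each by a small amount and with an interval that came close to 1. DA1, the gene that gave CHS3 its annotated name, stood at 6.13 and 4.30 CPM.

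**Figure D2:**
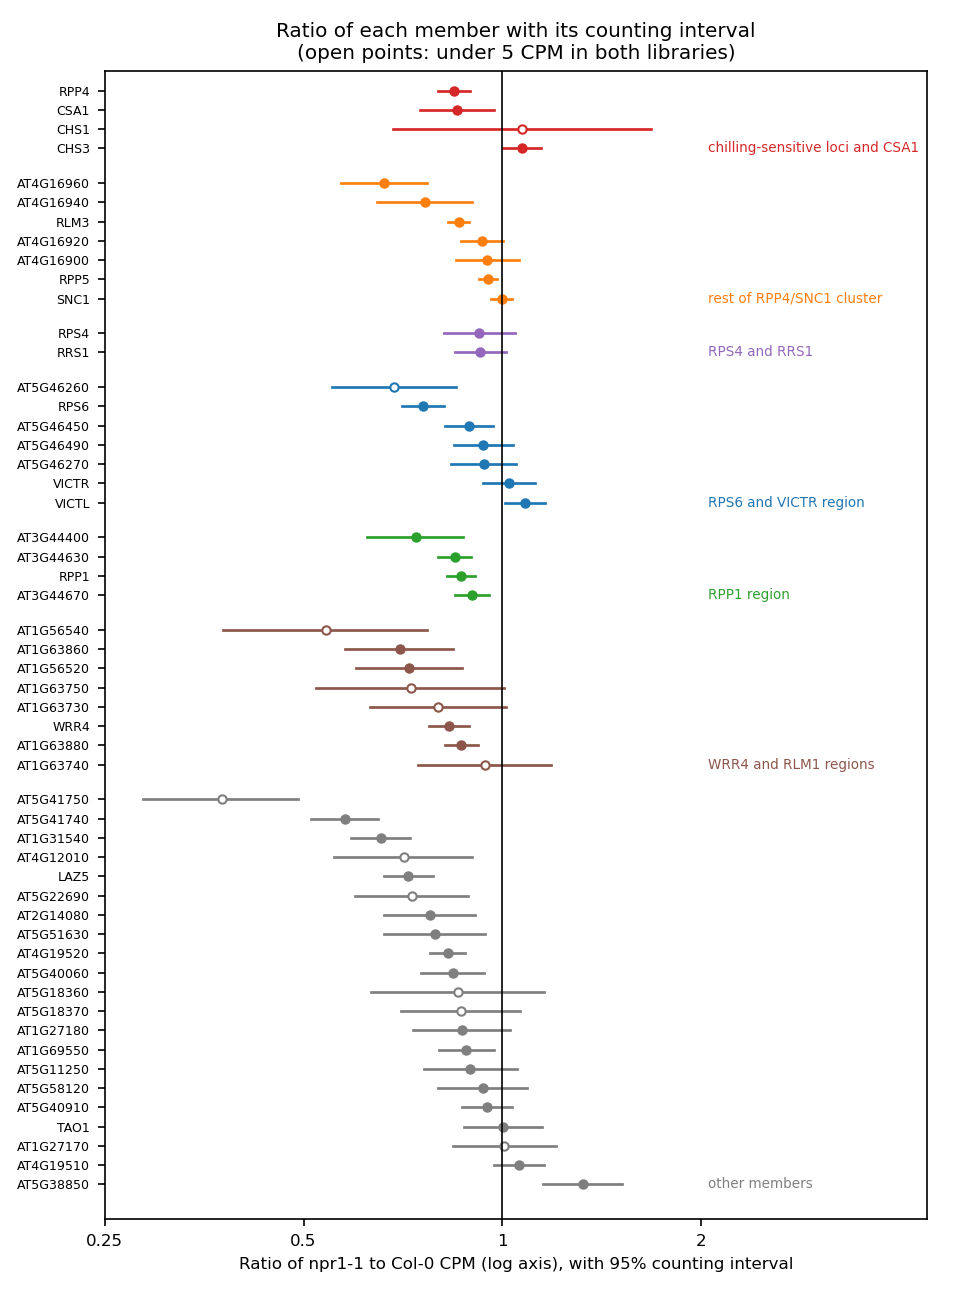
Ratio of npr1-1 to Col-0 CPM for each of the 53 genes on a log axis, grouped and sorted within groups; bars are 95% counting intervals and open points mark genes under 5 CPM in both libraries. Intervals lie below 1 for 29 genes and above 1 for 3, CHS3, VICTL and AT5G38850.

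The rest of the chromosome 4 cluster around RPP4 and SNC1 held 7 genes with values. All 7 were lower in npr1-1, where 59% of all genes past the minimum were. SNC1 was lower by so little that its difference was 0.0453, thus above 0, under median-ratio scaling. SNC1, a receptor whose gain-of-function allele makes plants dwarfed and resistant, had 5612 reads in each library, 110 CPM in both. Its log2 difference was -0.00 and its ratio 0.998 from 0.961 to 1.04, so the interval was narrow around equality. RPP5, named for downy mildew resistance, stood at 145 and 138 CPM, with a ratio of 0.951 from 0.920 to 0.983.

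RLM3, a receptor without leucine-rich repeats that is needed against the blackleg fungus, stood at 125 and 107 CPM, a log2 difference of -0.22 and a ratio of 0.859 from 0.828 to 0.891. AT4G16960 was the lowest of the cluster in relative terms, with 8.59 and 5.69 CPM, a log2 difference of -0.52 and a ratio of 0.662 from 0.569 to 0.770. AT4G16940 stood at 6.59 and 5.02 CPM, a log2 difference of -0.33. The 2 genes of the cluster with the fewest reads thus had the largest differences. AT4G16940 and AT4G16960 have transcripts that are 95.4% identical over 3041 bases, so how their reads were divided cannot be known.

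AT4G16900 stood at 13.1 and 12.4 CPM and AT4G16920 at 29.5 and 27.4 CPM, and both intervals held 1. AT4G16920 and RPP5 are 92.9% identical over 4478 bases, and a stretch of 1649 bases of AT4G16920 is 93.6% identical to RPP4. The median log2 difference of the 7 genes was -0.10, and 0.01 after the length trend was taken off. After that step the 7 genes went both ways, from -0.44 for AT4G16960 to 0.10 for SNC1, with 3 of the 7 below 0. Of all 13976 genes past the minimum 6981 were then below 0. Before the step, 4 of the 7 ratios had intervals below 1, where 36.8% of all genes past the minimum had one.

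**Figure D3:**
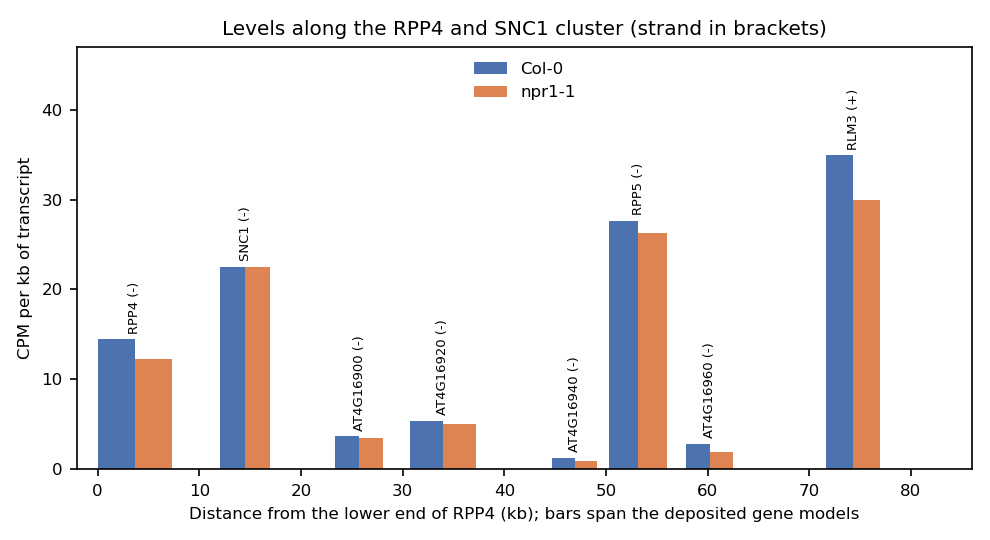
Level in CPM per kb of the longest RefSeq transcript along the RPP4 and SNC1 cluster, against the distance in kb from the lower end of RPP4; each pair of bars spans the deposited model of 1 gene, with Col-0 on the left and npr1-1 on the right. RLM3, RPP5, SNC1 and RPP4 are high, and AT4G16900, AT4G16920, AT4G16940 and AT4G16960 between them are low in both libraries.

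RPS4 and RRS1 are a pair that acts as 1 receptor complex for bacterial effectors, with RRS1 carrying a WRKY domain as a decoy. They lie head to head on chromosome 5, RPS4 from 18321914 to 18326022 and RRS1 from 18326203 to 18332609, with 180 bases between the deposited models. RPS4 stood at 10.7 CPM in the wild type and 9.87 CPM in the mutant, a ratio of 0.923 from 0.816 to 1.04. RRS1 stood at 20.1 and 18.6 CPM, a ratio of 0.926 from 0.846 to 1.01. Both partners had a log2 difference of -0.11, and both intervals held 1. The median of all genes in their length bin was -0.105. With it subtracted, RPS4 stood at -0.0007 and RRS1 at -0.0009. The difference of each gene was within its counting error, and what lay behind it was not tested. The RefSeq starts are closer than the deposited ones and leave a single stretch of 27 bases for the starts of both genes. It lies at chr5:18326176-18326202 of TAIR10.1 and is written 5′ to 3′ on the plus strand, the strand of RRS1. The stretch is shown because the pair had the same difference, though one within counting error.
RPS4-RRS1 gap: tgagatttgagtggttgaatgtccaat

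The RPS6 and VICTR region of chromosome 5 held 7 genes with values, 5 of them lower in npr1-1 and 2 higher, where 57.3% of all listed genes were lower. RPS6, a receptor for a bacterial effector, stood at 34.3 CPM in the wild type and 26.0 CPM in the mutant, a log2 difference of -0.39 and a ratio of 0.758 from 0.705 to 0.815. It had the lowest ratio of the region among genes past the minimum. AT5G46450 stood at 23.5 and 20.9 CPM, a log2 difference of -0.16, while AT5G46490, at 15.3 and 14.3 CPM, and AT5G46270, at 12.6 and 11.8 CPM, had intervals that held 1. AT5G46260, under the minimum, stood at 4.15 and 2.84 CPM with a ratio of 0.686 from 0.551 to 0.851.

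VICTR, required for root growth arrest by a small molecule that triggers TIR-type signalling, and its neighbour VICTL were the 2 higher genes. VICTL stood at 30.5 and 33.0 CPM, a log2 difference of 0.11 and a ratio of 1.08 from 1.01 to 1.16. VICTR stood at 18.4 and 18.9 CPM, a ratio of 1.02 from 0.934 to 1.12. The transcripts of these neighbours are 96.5% identical over 3364 bases, so reads could pass between them, and they are best read together as about equal in both libraries. RPS6, a few genes away on the same strand, did not share their direction.

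In the RPP1 region of chromosome 3 all 4 genes were lower in npr1-1, and each interval lay below 1. Among genes past the minimum with models of at least 3000 bases 69.9% were lower and 48.8% had an interval below 1. RPP1, which recognises a downy mildew effector in other accessions, stood at 67.8 CPM in the wild type and 58.7 CPM in the mutant, a log2 difference of -0.20. AT3G44630 stood at 50.5 and 42.7 CPM, a difference of -0.23, and AT3G44670 at 43.5 and 39.2 CPM, a difference of -0.15. AT3G44400 was the least abundant and the lowest in relative terms, with 6.59 and 4.86 CPM and a difference of -0.37. The median of the 4 was -0.22, and -0.11 after the length trend was taken off. RPP1 and AT3G44670 are 92.7% identical over 2811 bases, so these differences are not independent of each other.

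On chromosome 1 the regions around WRR4 and RLM1 held 8 genes with values, and all 8 were lower, where 57.3% of all listed genes were. WRR4, a receptor for white rust, stood at 35.7 and 29.7 CPM, a log2 difference of -0.26 and a ratio of 0.830 from 0.775 to 0.890. AT1G63880 stood at 50.9 and 44.1 CPM, a difference of -0.20. AT1G63860, at 5.45 and 3.81 CPM, and AT1G56520, at 5.49 and 3.96 CPM, had differences of -0.42 and -0.39, but reached the minimum in Col-0 alone, the library in which they were higher. The intervals of all 4 genes lay below 1, where 48.8% of genes past the minimum with models of at least 3000 bases had one. The median of the 4 was -0.32, and -0.22 after the length trend was taken off. Under the minimum, AT1G56540 had 94 and 51 reads, a ratio of 0.541 from 0.377 to 0.769. AT1G63730, AT1G63740 and AT1G63750 stood between 1.81 and 3.17 CPM in Col-0, and their intervals held 1.

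A tandem pair on chromosome 5, AT5G41740 and AT5G41750, had the lowest log2(CPM + 1) differences of the 53 genes, and both are annotated as TIR-NBS-LRR receptors. AT5G41740 lies from 16688626 to 16693119 and AT5G41750 from 16693909 to 16698943, on the same strand and 789 bases apart. AT5G41740 stood at 15.4 CPM in the wild type and 8.87 CPM in the mutant, 781 and 452 reads, a log2 difference of -0.73 and a ratio of 0.577 from 0.513 to 0.649. AT5G41750 stood at 4.07 and 1.53 CPM, 207 and 78 reads, a log2 difference of -1.003 and a ratio of 0.376 from 0.286 to 0.490. Its level was thus 2.66-fold lower, with an interval from 2.04 to 3.497. It is under the minimum, where 1.17% of all genes were at least 2-fold apart and 3.69% at least 1.5-fold lower, and on the log2(CPM + 1) scale of those shares it was the only one of the 12 receptor genes there to pass either fold. As a plain ratio AT1G56540, also under the minimum, was 1.85-fold lower. The transcripts are 90.5% identical over 3353 bases, so a part of the reads of one could come from the other, and the 2 values are not independent.

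The 250 bases before each RefSeq start of this pair are shown because they were the receptor neighbours that differed most together. They are the plus strand of TAIR10.1 at chr5:16688376-16688625 and chr5:16693582-16693831, written 5′ to 3′. Capitals mark the longest run of letters that both windows share, 14 bases.
AT5G41740: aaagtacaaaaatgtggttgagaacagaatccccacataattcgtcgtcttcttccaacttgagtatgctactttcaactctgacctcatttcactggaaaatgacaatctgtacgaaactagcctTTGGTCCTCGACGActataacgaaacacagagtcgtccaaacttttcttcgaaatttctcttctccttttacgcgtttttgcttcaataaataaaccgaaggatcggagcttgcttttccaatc
AT5G41750: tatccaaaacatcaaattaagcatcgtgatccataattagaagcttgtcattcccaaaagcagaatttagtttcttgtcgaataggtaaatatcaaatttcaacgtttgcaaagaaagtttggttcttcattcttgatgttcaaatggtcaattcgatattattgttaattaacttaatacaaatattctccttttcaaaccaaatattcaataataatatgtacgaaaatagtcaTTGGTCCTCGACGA
The shared run ends 110 bases before the start of AT5G41740 and directly at the start of AT5G41750. The W-box core TTGAC, the letters bound by WRKY factors, was searched on both strands, and the first window held 0 and the second 1. TGACG, the core of the sites of TGA factors, partners of NPR1, was in neither window.

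The same windows of all 53 genes held these letters about as often as those of other genes. TTGAC was in 25 of the 53 windows, 47.2%, and in 44.3% of 18153 windows of listed genes. TGACG was in 11, 20.8%, and in 19.2% of all windows, and a stretch reading TTGACG counts for both. CCGAC, the core of the cold-response element, was in 5, 9.43%, and in 13.2% of all. The perfect heat shock element was in 0 of the 53 and in 0.419% of all. A match describes letters only, and a window without one says nothing about a factor.

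Outside the named regions AT1G31540 and LAZ5 came next among genes past the minimum. AT1G31540 stood at 17.97 CPM in the wild type and 11.8 CPM in the mutant, a log2 difference of -0.57 and a ratio of 0.654 from 0.589 to 0.726. LAZ5, a receptor whose loss suppresses the runaway cell death of the acd11 mutant, stood at 24.8 and 17.9 CPM, a difference of -0.45 and a ratio of 0.720 from 0.661 to 0.785. Both were lower by more than counting error. A stretch of 35.5% of the AT1G31540 transcript is 91.1% identical to that of AT5G46490, which itself was nearly equal in both libraries. Other stretches are less alike, at 84.9% identity to AT5G46260, 84.9% to AT5G46270 and 81.2% to VICTR. Of these AT5G46260 was lower in npr1-1, while the intervals of AT5G46270 and VICTR held 1.

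AT5G38850 was the highest in relative terms of the 53 genes. It stood at 7.31 CPM in the wild type and 9.67 CPM in the mutant, 372 and 493 reads, a log2 difference of 0.36 and a ratio of 1.32 from 1.15 to 1.52. TAO1, which adds to the response to a bacterial effector, had 430 and 432 reads and a ratio of 1.00 from 0.875 to 1.15. The neighbours AT4G19510 and AT4G19520, 267 bases apart on opposite strands, went different ways, as the pair of CHS3 and CSA1 had. AT4G19510 stood at 20.1 and 21.3 CPM, a ratio of 1.06 from 0.973 to 1.16, and AT4G19520 at 45.5 and 37.6 CPM, a ratio of 0.826 from 0.777 to 0.878.

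The remaining receptors past the minimum were lower by less than 1.5-fold. AT2G14080 stood at 7.10 and 5.51 CPM, AT5G51630 at 5.74 and 4.53 CPM, AT5G40060 at 13.96 and 11.7 CPM and AT1G69550 at 17.9 and 15.8 CPM, and their intervals lay below 1. AT5G40910 at 21.5 and 20.4 CPM, AT1G27180 at 5.88 and 5.10 CPM, AT5G11250 at 6.27 and 5.61 CPM and AT5G58120 at 6.78 and 6.34 CPM had intervals that held 1. Of the genes under the minimum, AT4G12010, at 3.32 and 2.35 CPM, and AT5G22690, at 4.84 and 3.53 CPM, had intervals below 1. AT1G27170 at 4.88 and 4.90 CPM, AT5G18360 at 1.95 and 1.67 CPM and AT5G18370 at 3.97 and 3.43 CPM had intervals that held 1.

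Read assignment limits several of these values. At 95% identity over at least 50% of the transcript 4 of the 53 genes had a copy, the neighbours VICTL and VICTR and the pair AT4G16940 and AT4G16960, and at 90% identity 13 did. The deposited model of AT5G58120 overlaps that of AT5G58130. The RefSeq models of 9 genes share at least 100 bases with another gene, CHS1, AT4G16920, RPP5, VICTL, AT3G44630, TAO1, AT1G69550, AT4G12010 and AT5G51630.

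Other receptor genes were compared to see where the 53 stood. Coiled-coil receptors, the other main class, had values for 31 of 44 listed genes. Of the 22 past the minimum 18 were lower in npr1-1, where 59% of all genes past it were. RPM1 and LOV1 count among the 22 only through Col-0, the library in which they were higher. The median log2 difference of the 22 was -0.13, and -0.05 after the length trend was taken off, beside -0.17 and -0.08 for the TIR-type receptors. The number at least 1.5-fold lower was 0, and the number higher was 0, where 2.06% and 0.909% of all genes past the minimum were. The 3 coiled-coil receptors with the largest differences were ZAR1 at 45.3 and 30.7 CPM (-0.55), AT1G58602 at 60.0 and 45.1 CPM (-0.40) and SUMM2 at 9.77 and 7.26 CPM (-0.38). The distance between the classes was not tested, and the lists overlap widely in the plot of differences by list.

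A further 77 genes have TIR in their RefSeq product name and were not on the list of 60, and 25 of them had values. Of these, 7 passed the minimum and 6 of the 7 were lower, where 59% of all genes past it were. AT4G23440 counts among the 7 only through Col-0, the library in which it was higher. The median of the 7 was -0.08, and 0.03 after the length trend was taken off. Among the 18 under the minimum 13 were lower and 4 were at least 1.5-fold lower, where 52.1% and 3.69% of all genes under it were. These 4 were AT2G20142 with 135 reads in the wild type and 40 in the mutant, AT1G47370 with 82 and 32 reads, AT1G66090 with 67 and 23 reads and AT1G57630 with 40 and 6 reads. Few reads stand behind them, but each ratio had an interval below 1. AT4G09420 went the other way, with 59 and 96 reads, a ratio of 1.62 from 1.16 to 2.29.

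**Figure D4:**
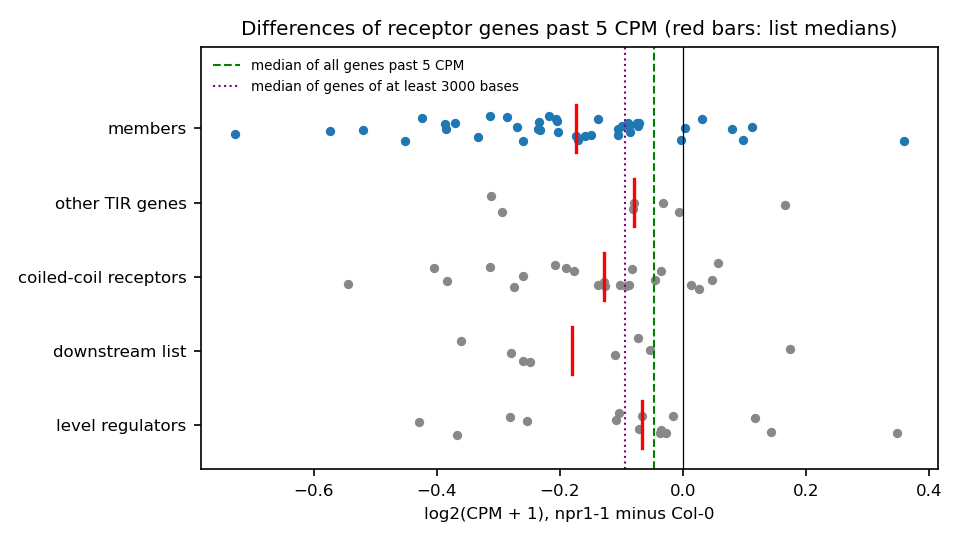
Difference of log2(CPM + 1), npr1-1 minus Col-0, for genes past 5 CPM, 1 point per gene, for the 53 receptor genes (members, 41 past the minimum) and 4 other lists; red bars are list medians and the dashed and dotted lines the medians of all genes and of long genes. The medians of the lists lie between -0.18 and -0.07, and their points overlap.

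The genes through which TIR-type receptors signal differed by less than 1.5-fold where they passed the minimum, and in both directions. Of 10 listed genes 9 had values, and among the 8 past the minimum 7 were lower, where 59% of all genes past it were. The median was -0.18, and -0.09 after the length trend was taken off, with 5 of the 8 then below 0. Of all 13976 genes past the minimum 6981 were then below 0. Before that step the interval of the ratio lay below 1 for 4 of the 8, above 1 for 1 and held 1 for 3. Among all genes past the minimum 36.8% had an interval below 1 and 23.5% one above 1. The number at least 1.5-fold apart was 0, where 2.06% of all genes past the minimum were lower and 0.909% higher by that much. EDS1, the hub that reads the TIR signal, stood at 10.2 CPM in the wild type and 7.69 CPM in the mutant, a log2 difference of -0.36. Its partners PAD4, at 8.06 and 7.73 CPM, and SAG101, at 5.15 and 4.14 CPM, were lower by less, and the interval of PAD4 held 1. SAG101 reached the minimum in Col-0 alone. The helper receptor ADR1-L1 stood at 47.5 and 38.9 CPM (-0.28) and ADR1-L2 at 24.97 and 23.7 CPM, with an interval that held 1. ADR1 was higher, at 8.20 and 9.38 CPM (0.17), but its interval, from 1.001 to 1.31, came close to 1. Under the minimum, AT3G48080, the neighbour of EDS1, had 62 and 27 reads, a ratio of 0.435 from 0.266 to 0.693.

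Receptor chaperones fold the receptors and hold them ready. All 10 listed genes had values, 8 were lower in npr1-1 and 3 were at least 1.5-fold lower, where 59% and 2.06% of all genes past the minimum were. HSP90.1 stood at 224 and 10.3 CPM, SGT1A at 80.3 and 35.8 CPM and HSP81-2 at 2108 and 1375 CPM, with log2 differences of -4.31, -1.14 and -0.62. SGT1B, the second SGT1 gene, stood at 113 and 116 CPM and PBS2, which encodes RAR1, at 10.01 and 11.6 CPM. The chaperone genes thus covered a wider range than the receptors themselves.

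A list of genes known to set receptor levels, which also held TIR genes such as AT1G17600, had values for 16 of 17. AT1G17600 lay under the minimum and was also counted among the 25 further TIR genes with values. Of the 15 genes past the minimum 12 were lower, where 59% of all genes past it were. The median was -0.07, and 0.01 after the length trend was taken off, with 5 of the 15 then below 0. Of all 13976 genes past the minimum 6981 were then below 0. The number at least 1.5-fold apart was 0, where 2.06% of all genes past the minimum were lower and 0.909% higher by that much. The 3 largest differences were those of DA1, at -0.43, BON1, a negative regulator of SNC1, at -0.37, and MOS6, an importin needed for snc1 signalling, at 0.35. DA1 reached the minimum in Col-0 alone, the library in which it was higher. CPR1, the F-box protein that targets SNC1 for degradation, stood at 20.8 and 20.2 CPM. SNC1 and its best-known regulator were thus both within a few percent of equality.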

How the data were processed

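The values are CPM as deposited, which the authors scaled to a sum of 1000000 over 18345 genes (column names per the file headers) and wrote with a decimal comma. Model length in bases is also the authors' deposited value. The submitters' processing notes name TopHat2, DESeq2 and TAIR10, with no version or role. The counter and its strand use are not given in the sources used. Whole reads were recovered by dividing by what 1 read is worth (100% of values whole within 0.01), and served for the exact conditional binomial (Clopper-Pearson) 95% intervals, which cover counting error only, since PCR copies are not separate molecules. With 1 library per genotype no count test was run. The difference was log2(CPM + 1), npr1-1 minus Col-0, with a minimum of 5 CPM in at least 1 library, folds of 1.5 and 2 on that scale, and 20 bins of model length for the length trend.

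Names, products, transcripts and sequences are from RefSeq, assembly TAIR10.1, matched for 18154 of 18345 gene IDs. All 993 of 993 coding-only deposited models opened with ATG in that genome, so TAIR10 positions were read from it. Copies were sought with BLAST+ 2.17.0. Python 3.11.15, numpy 2.4.6, pandas 2.3.3, scipy 1.17.1 and matplotlib 3.10.9 were used, and the steps were tested on simulated data. The genes and lists were chosen with earlier results of these data known. Every receptor with a value could be named, as could NPR1. So could the members of the other lists at least 1.5-fold apart, or else the 3 with the largest difference. AT1G17600 and AT5G58130 were named as overlapping partners. Outside this rule and after their values were seen, EDS1, PAD4, SAG101, the ADR1 genes, SGT1B, PBS2 and CPR1 were named for their roles. In the same way AT3G48080 and AT4G09420 were named for their ratios, and RPM1, LOV1 and AT4G23440 for reaching the minimum in Col-0 alone. Alternatives were other pseudocounts, minimums, scalings, lengths and summaries, and lists without genes that share reads.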

Additional observations from a re-analysis of the deposited data

How the results depend on the processing

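The median log2 difference of the receptor genes stayed negative under all 11 alternatives, from -0.20 to -0.08, the last after subtraction of the length trend, and the number lower stayed above the number higher. The number at least 1.5-fold lower rests on few genes: 1 as reported, it was 3 with a pseudocount of 0.1 CPM, 0 with 5 CPM, 2 with a minimum of 1 CPM and 2 with none, and 0 without AT5G41740 and AT5G41750, an alternative chosen after seeing the data. The number at least 2-fold apart was 1, AT5G41750, with a minimum of 1 CPM and 1 with none, instead of 0. The median of the other TIR genes was -0.21 with no minimum and reversed to 0.0265 after the length trend was subtracted, and SNC1 reversed to 0.0453 under median-ratio scaling. Among 159 single-gene values 3 others moved: RPP5 from -0.07 to -0.02 under median-ratio scaling, and, with a pseudocount of 5 CPM, AT5G41740 from -0.73 to -0.55 and AT5G41750 from -1.003 to -0.47. The median level in Col-0 was 3.22 CPM per kb with the deposited model length instead of 2.84. Median-ratio and upper-quartile scaling moved the all-gene median up by 0.046 and 0.056. A median was taken as moved beyond the counting half-width of the gene nearest it, 0.25 for the receptors, which is a wide tolerance. No paired analysis was possible because there is 1 library per genotype. Differences of genes under 5 CPM are limited by depth, and no value has a replicate.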
